A study of Mus musculus with 1086 samples.

Results

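Liver messenger RNA was compared between 7 NOD/ShiLtJ males fed a high fat diet and 8 NOD/ShiLtJ males fed standard chow. These 15 libraries were the NOD columns among 128 libraries of the 8 inbred founder strains of the Diversity Outbred mouse stock, in a series of 1086 sequencing records. Of 16 libraries labelled NOD, high fat replicate 3 was left out because its expression pattern matched C57BL/6J (B6) livers (r = 0.596 with the B6 mean) and not NOD livers (r = 0.00613). The labels describe NOD males killed at 26 weeks of age, housed in Wisconsin, with livers snap frozen. Their text gives the founder diets in 2 ways. In the first, begun at 4 weeks of age, fat supplied 17% of kcal in the control feed and 45% in the high fat feed, which was also 34% sucrose by weight. In the second, fat made up 6% of the weight of chow and 22% of that of the high fat feed. Which pair was fed cannot be told apart from these texts. The labels name no transgene or induced allele. NOD/ShiLtJ is an inbred strain known as a model of autoimmune diabetes, which affects females more often than males, and the sources used here do not give these males' blood glucose.

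The liver makes cholesterol from acetyl-CoA through the mevalonate and sterol pathway. When sterols are scarce in the cell, the membrane-bound factor SREBP2 is released and raises transcription of nearly every enzyme of that pathway. When sterols are plentiful, INSIG proteins hold the factor back and the same genes fall together. The liver also burns fatty acids under the control of PPAR alpha, exports sterols into bile, and clears foreign and endogenous compounds with cytochrome P450 enzymes, several of which differ between male and female mice.

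Values are count equivalents, which are the deposited signal times one constant of 114.99 for all libraries, so that 1 is worth about 1 read. Changes are differences of means of log2(count equivalents + 1), high fat minus chow, with the standard error (SE) of a limma fit over 16 groups of strain and diet, and adjusted p values are Benjamini-Hochberg over 13637 genes, with calls made below 0.05. Folds are on that scale and understate changes of low genes. For the diet change, counts of genes at an unadjusted p under 0.05 are given within lists only. Their share over all genes is not given, so these counts have no baseline here. Totals estimated from the smallest step of the values were 7130792 to 11339618 counts per library on high fat and 7860441 to 10413277 on chow (exact permutation test, two-sided p = 0.612, n = 7 and 8). By label, each of the 8 lanes of the flowcell held 1 high fat and 1 chow NOD library. On the first principal component of the 15 libraries, with 23.9% of the variance, chow replicates 5, 6 and 7 lay at 37.4, 39.7 and 29.7 and every other library at 12.0 or less. The 9 of 10 hepatocyte markers that are in the table all passed the filter, and their summed level was 541084 to 805088 on high fat and 723327 to 838697 on chow. The fat cell markers Lep and Retn were at 0 in every library, and 7 of 10 pancreas markers were at 0.

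Between the diets, 240 of 13637 genes differed (1.76% of those tested), 0.99% of all genes higher and 0.77% lower on high fat, and 92 by more than 2-fold. The groups did not overlap in 60 of the 240, against 96 genes (0.704%) among all tested. Of the 12 largest decreases among genes with a mean log2 level of at least 5, 9 were genes of cholesterol synthesis and its regulation, and of the 12 largest increases 4 were cytochrome P450 genes. The median change over all genes was 0.01. Leaving out chow replicates 5, 6 and 7 reduced the calls to 17 higher and 32 lower, of which 16 and 31 were among the calls with all 8. With high fat replicate 3 kept as labelled, 77 genes were called lower, 15 of them in the cholesterol list described next. Leaving out each of the 15 libraries of the comparison in turn gave 63 to 228 higher calls (without chow replicate 6 and without chow replicate 2) and 54 to 213 lower calls (without chow replicate 7 and without chow replicate 2). Fitted on the 15 NOD libraries alone, 190 genes were called higher and 140 lower, of which 90 and 72 were among the 240. In bulk liver, fewer cells of a type and less RNA per cell cannot be told apart.

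**Figure D1:**
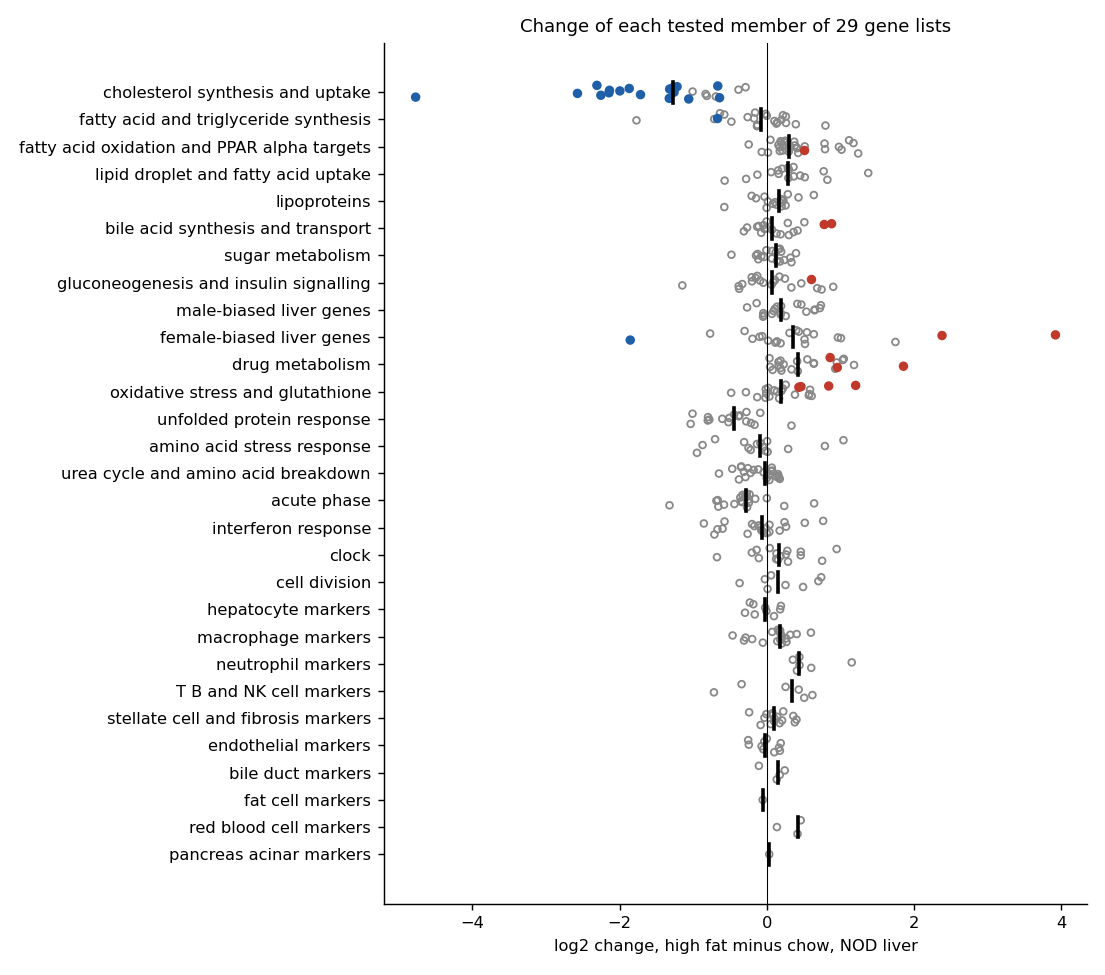
Each row is a gene list and each point is 1 tested member, placed by its log2 change (high fat minus chow) in NOD liver. Filled points passed an adjusted p of 0.05 (red higher, blue lower), open points did not, and black bars are list medians. The cholesterol list lies wholly on the left, with a median of -1.28.

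Of the 24 genes in the list of cholesterol synthesis and uptake, 23 were in the table and all 23 passed the low-value filter. On high fat 17 fell, against 0.77% of all genes, and 0 rose. The other 6 did not pass the test. All 23 had a negative change, against 6477 of all 13637 genes. The median change was -1.28, against 0.01 over all genes. In 9 of the 23 every high fat library lay below every chow library, against 0.242% of all genes. There were 13 calls, all lower, and a median of -1.26 when chow replicates 5, 6 and 7 were left out, and 13 without chow replicate 7 alone.

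In the mevalonate steps of the pathway, Mvd, the mevalonate diphosphate decarboxylase, ranged from 50.3 to 325 on chow (median 130.8) and from 10.3 to 29.9 on high fat (median 19.8). All 7 high fat livers lay below the lowest chow liver, replicate 2, and Mvd was 5.95-fold lower (change -2.57 ± 0.44, adjusted p = 4.79e-05). Idi1, the isopentenyl diphosphate isomerase, fell by 2.14 ± 0.53 (adjusted p = 0.014), with 238 to 1149 count equivalents on chow and 72.9 to 257 on high fat, where only high fat replicate 1 reached into the chow range. Its call was lost when chow replicate 7 was left out (adjusted p = 0.0504) and without chow replicates 5, 6 and 7 (adjusted p = 0.0513). Fdps, which makes farnesyl diphosphate, was also highest in that liver among the high fat group, with 900 count equivalents against 217 to 365 in the other 6, and fell by 1.87 ± 0.41 (adjusted p = 0.00386). The kinases Mvk (-0.83 ± 0.29, adjusted p = 0.111) and Pmvk (-0.82 ± 0.29, adjusted p = 0.119) did not pass the test.

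Sqle, the squalene epoxidase, had the largest decrease of any tested gene. It was measured at 800, 51.2, 764, 552, 176, 173.8, 1326 and 200 count equivalents in chow replicates 1 to 8. In high fat replicates 1, 2, 4, 5, 6, 7 and 8 it was 15.4, 10.5, 8.78, 10.3, 11.9, 12.2 and 9.89. The chow livers were spread widely while the high fat livers lay close together, and the lowest chow liver was still above the highest high fat liver. The level was 27.3-fold lower on high fat (change -4.77 ± 0.62, adjusted p = 1.82e-08).

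Among the later sterol enzymes, Cyp51, the lanosterol demethylase, was 271 to 1326 on chow (median 642) and 81.6 to 214 on high fat (median 105.9), with no overlap (change -2.31 ± 0.41, adjusted p = 0.000123). Msmo1, the sterol methyl oxidase, was 332 to 1442 on chow and 119.3 to 190 on high fat, again with no overlap (change -2.14 ± 0.43, adjusted p = 0.00116). The steps before and after them fell as well: Fdft1 by 1.28, Lss by 1.26, Tm7sf2 by 1.06, Nsdhl by 1.72 and Dhcr7 by 1.22. Hsd17b7 (-0.39), Ebp (-0.29) and Sc5d (-0.69) did not pass. Ebp lay below every chow liver in all 7 high fat livers all the same, at 951 to 1113 against 1135 to 1483 count equivalents.

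Genes that regulate sterol supply fell together with the enzymes. Insig1, the sterol-sensing retention protein, was 630 to 2533 on chow and 165.6 to 774 on high fat (change -2.00 ± 0.33, adjusted p = 2.79e-05). High fat replicate 4 was the only high fat liver inside the chow range. The intracellular sterol carrier Stard4 fell by 1.33 ± 0.26 and Srebf2, which encodes SREBP2, by 0.64 ± 0.15.

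The livers did not contribute evenly. Chow replicate 7 was the highest chow liver for 15 of the 23 genes and chow replicate 2 the lowest for 11. High fat replicate 1 was the highest high fat liver for 17. Averaged over the 23 genes, relative to the mean of the 15 libraries, the chow livers ranged from 0.04 (replicate 2) to 1.53 (replicate 7) on the log2 scale and the high fat livers from -1.15 (replicate 7) to -0.18 (replicate 1).

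**Figure D2:**
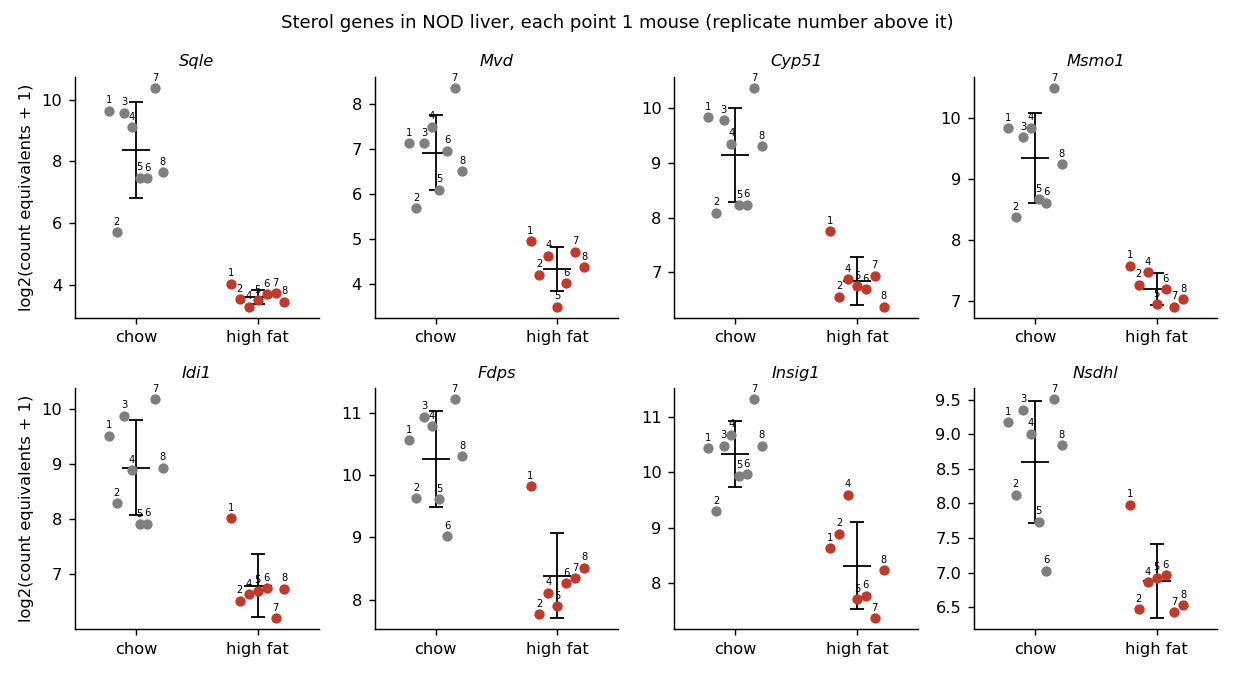
Levels of 8 sterol genes as log2(count equivalents + 1) in 8 chow (grey) and 7 high fat (red) NOD livers. Points are single mice with their replicate number, and bars are mean and SD. For Sqle the high fat livers lie between 8.78 and 15.4 count equivalents, below all chow livers.

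Because these genes moved together, their RefSeq promoter windows were searched on the GRCm38.p6 build, which is a later build than that of the expression files. Each window holds 250 bases before and 50 after the annotated start, and both strands were read. Of the 23 genes 15 had a window, and Sqle and Fdps were among those without 1. The letters CCAAT, the core of the box bound by NF-Y, a factor known to act beside SREBP2, were in 15 of the 15, and in 41.1% of 27025 symbols with a window. They were in 63.2% of the genes called lower that had a window, a set that includes members of this list, and in 44.9% of those called higher. The strict sterol element TCACNCCAC was in 0 of the 15 and in 1.44% of all symbols. These windows describe letters only, and no binding was measured. The stretches below end at the base before the start for Mvd, Cyp51, Msmo1 and Idi1 and begin 236 bases before it for Insig1. These 5 are shown as examples from the 12 largest decreases. Nsdhl, also among those 12, has a window with the letters CCAAT that is not shown. They lie at chr8:122443423-122443542 (minus strand), chr5:4104698-4104817 (minus), chr8:64733579-64733698 (minus), chr13:8885486-8885605 (plus) and chr5:28071176-28071295 (plus). Capitals mark CCAAT or its reverse complement ATTGG.
Mvd: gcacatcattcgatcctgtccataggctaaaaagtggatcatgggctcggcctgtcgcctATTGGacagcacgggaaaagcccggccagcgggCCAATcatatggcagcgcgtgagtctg
Cyp51: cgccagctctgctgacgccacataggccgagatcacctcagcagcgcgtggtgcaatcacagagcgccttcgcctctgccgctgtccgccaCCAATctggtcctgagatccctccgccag
Msmo1: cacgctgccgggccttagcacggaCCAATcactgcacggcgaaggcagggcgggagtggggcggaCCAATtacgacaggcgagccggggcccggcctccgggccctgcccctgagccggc
Idi1: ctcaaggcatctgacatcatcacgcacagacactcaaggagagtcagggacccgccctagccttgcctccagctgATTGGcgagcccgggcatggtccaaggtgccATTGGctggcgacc
Insig1: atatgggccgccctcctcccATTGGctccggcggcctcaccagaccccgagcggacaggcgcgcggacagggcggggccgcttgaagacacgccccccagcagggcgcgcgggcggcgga
Mvd, Msmo1 and Idi1 carry the letters at 2 places in these stretches and Cyp51 and Insig1 at 1.

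The other 3 of those 12 decreases were Tff3, Rdh11 and Fabp5. Rdh11, a retinal reductase of the endoplasmic reticulum, was 206 to 887 on chow and 82.8 to 329 on high fat, with only high fat replicate 1 in the chow range (change -1.95 ± 0.28, adjusted p = 3.54e-07). Tff3, a secreted trefoil peptide, was 81.8 to 487 on chow and 27.1 to 118.5 on high fat (change -2.02 ± 0.55, adjusted p = 0.0292). Fabp5, a fatty acid binding protein, was 282 to 1911 on chow and 67.3 to 490 on high fat (change -1.86 ± 0.48, adjusted p = 0.0205). Their groups overlapped by 1 high fat liver each, replicate 1, 4 and 7. The calls of Tff3 and Fabp5 were lost when single libraries were left out in 7 and 4 of 15 cases (adjusted p up to 0.0906 for both, without high fat replicate 6), and without chow replicates 5, 6 and 7 (0.219 and 0.310). The call of Rdh11 was not (6.83e-07 without those 3).

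On the scale used here the largest increase of any tested gene was Cyp2b13, a P450 more abundant in female than in male mouse liver. It was at 0 in chow replicates 3, 5 and 8, between 0.80 and 1.02 count equivalents in replicates 1, 4, 6 and 7, and 7.22 in replicate 2. On high fat it was 23.2, 14.7, 7.71, 31.7, 92.2, 34.8 and 31.1 in replicates 1, 2, 4, 5, 6, 7 and 8. The groups did not overlap, though chow replicate 2 came close to high fat replicate 4, and the change was 3.92 ± 0.65 (adjusted p = 2.79e-05). With chow values this near 0 its size depends on the settings, and it ranged from 1.76 to 4.23 over 26 alternatives. Cyp2b9, also female-biased, was 5.18 to 184 on chow (median 46.5) and 91.2 to 318 on high fat (median 185), again with chow replicate 2 highest on chow (change 2.38 ± 0.69, adjusted p = 0.0437). Of the 22 tested female-biased genes these 2 rose and 1, Fabp5, fell, with a list median of 0.35. Over all genes 0.99% rose and 0.77% fell. Of 20 male-biased genes 0 passed the test and 1 had an unadjusted p under 0.05 (median 0.19). The call of Cyp2b9 was lost in 10 of 15 cases when single libraries were left out (adjusted p up to 0.140, without chow replicate 5) and without chow replicates 5, 6 and 7 (0.437), and with lane as a block (0.0528), and that of Cyp2b13 in 0 of 15. Cyp2b genes are close copies of each other, and how reads were split between them is uncertain.

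In the drug metabolism list 3 of 23 tested genes rose, against 0.99% of all genes, and 0 fell. All 23 had a positive change, against 7090 of all 13637 genes. The median was 0.42, against 0.01 over all genes. Cyp3a11, the main steroid and drug hydroxylase of the family in mouse liver, was 3321 to 17426 on chow (median 6862) and 10668 to 34952 on high fat (median 28325). Of the 7 high fat livers, 6 exceeded the highest chow liver, replicate 2 (change 1.86 ± 0.52, adjusted p = 0.0362). Cyp3a25 rose by 0.96 ± 0.19 and Aldh1a1, which oxidizes retinal to retinoic acid, by 0.86 ± 0.17. Outside the list Cyp3a59 was 35.4 to 165.7 on chow and 241 to 507 on high fat, with no overlap (change 2.02 ± 0.37, adjusted p = 0.000176). Ces1g, a liver carboxylesterase, rose by 1.29 ± 0.37. Genes of the Cyp3a and Ces1 families are also close copies. In the drug metabolism list, leaving out chow replicates 5, 6 and 7 left 0 calls and a median of 0.47, Cyp3a11 changed by 1.57 (adjusted p = 0.366) and Ces1g by 1.04 (adjusted p = 0.426), and Cyp3a59 passed (0.0406). Leaving out single libraries ended the calls of Cyp3a11 in 9 and of Ces1g in 12 of 15 cases (adjusted p up to 0.0900 and 0.140, without chow replicate 5).

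Cyp26a1, which clears retinoic acid, was 20.1 to 131.2 on chow (median 36.1) and 60.9 to 286 on high fat (median 117.2). Chow replicate 2 was the only chow liver above the lowest high fat liver, and the change was 1.77 ± 0.49 (adjusted p = 0.0361). The call was lost in 10 of 15 cases when single libraries were left out (adjusted p up to 0.106, without high fat replicate 8) and without chow replicates 5, 6 and 7 (0.303). The gene is a known target of the retinoic acid receptor through a direct repeat spaced by 5 bases. That repeat, written here as AGTTCA, any 5 bases and AGTTCA again, was in the windows of 0.03% of symbols, 8 genes, of which Cyp26a1 and Blvrb rose here (Blvrb, biliverdin reductase B, by 0.58). Only this spelling of the repeat was searched, and because Cyp26a1 is a known target its match is not a test. The Cyp26a1 match is shown in capitals, on the reverse strand, in the 120 bases before the annotated start at chr19:37697688-37697807 (plus strand, GRCm38.p6, RefSeq).
Cyp26a1: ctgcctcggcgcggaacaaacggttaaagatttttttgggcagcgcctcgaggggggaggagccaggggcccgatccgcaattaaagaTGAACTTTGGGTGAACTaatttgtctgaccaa
Of the other 2 motifs searched, the PPAR repeat, AGGTCA, any 1 base and AGGTCA, was in 0 of 21 fatty acid oxidation genes with a window (0.05% of all symbols), and the everted repeat of the receptor PXR, TGAACT, any 6 bases and AGGTCA, was in 0 of 21 drug metabolism genes and in 0 symbols of all.

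Among 23 genes of oxidative stress defence 4 rose, against 0.99% of all genes, and 0 fell (list median 0.20). Ephx1, the microsomal epoxide hydrolase, was 519 to 1451 on chow and 1748 to 2686 on high fat, without overlap (change 1.21 ± 0.30, adjusted p = 0.0129). Gclc and Gclm, the catalytic and modifier subunits of the enzyme that starts glutathione synthesis, rose by 0.84 ± 0.24 and 0.46 ± 0.13, and the peroxidase Gpx1 by 0.44 ± 0.12. All 4 calls were lost without chow replicates 5, 6 and 7, where Gclc changed by 0.37 and Ephx1 by 0.93 (adjusted p = 0.745 and 0.326). Leaving out single libraries ended the calls of Gclc, Gclm and Gpx1 in 8, 10 and 8 of 15 cases (adjusted p up to 0.188, 0.171 and 0.123) and that of Ephx1 in 0. In the fit on NOD libraries alone Gclc and Gclm did not pass (adjusted p = 0.115 and 0.124). Chow replicates 5, 6 and 7 held the lowest Gclc of all 15 livers, at 462, 442 and 752 count equivalents.

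In the list of bile acid synthesis and transport 2 of 19 genes rose, against 0.99% of all genes, and 0 fell (median 0.07). The pair that rose encodes both subunits of the sterol exporter into bile. Abcg5 was 541 to 913 on chow and 967 to 1416 on high fat, and Abcg8 was 385 to 641 on chow and 762 to 1053 on high fat. Neither gene's groups overlapped, and they rose by 0.88 ± 0.24 (adjusted p = 0.0286) and 0.78 ± 0.23 (adjusted p = 0.0461). The other 17 tested genes of the list, among them the bile acid enzymes and transporters, did not pass. Without chow replicates 5, 6 and 7 the changes were 0.97 and 0.72 and neither passed (adjusted p = 0.0854 and 0.326). Leaving out single libraries ended the calls in 5 and 14 of 15 cases (adjusted p up to 0.0687 and 0.109, without chow replicate 7). With lane as a block the adjusted p of Abcg8 was 0.0520.

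Other genes that rose by the largest amounts have varied roles. Adam11, an ADAM family member without protease activity, was 76.7 to 269 on chow and 284 to 553 on high fat, with no overlap (change 1.78 ± 0.29, adjusted p = 2.37e-05). The matrix protein gene Omd rose by 1.42 ± 0.32, the protease inhibitor gene Serpine2 by 1.27 ± 0.32 and Mas1, a receptor of the angiotensin system, by 1.21 ± 0.35. Jun, an immediate early transcription factor, was 38.8 to 776 on chow and 94.5 to 736 on high fat (change 1.39 ± 0.40, adjusted p = 0.0444). No high fat liver exceeded chow replicate 2 for Jun, and the groups overlapped widely. Omd, Serpine2, Mas1 and Jun lost their calls without chow replicates 5, 6 and 7 (adjusted p = 0.355, 0.225, 0.529 and 0.331), and Adam11 did not (0.00288). Leaving out single libraries ended the calls of Jun in 11, of Mas1 in 13 and of Serpine2 in 2 of 15 cases (adjusted p up to 0.141, 0.140 and 0.0626). The call of Jun was also lost with lane as a block (0.0552) and in the fit on NOD libraries alone (0.162).

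**Figure D3:**
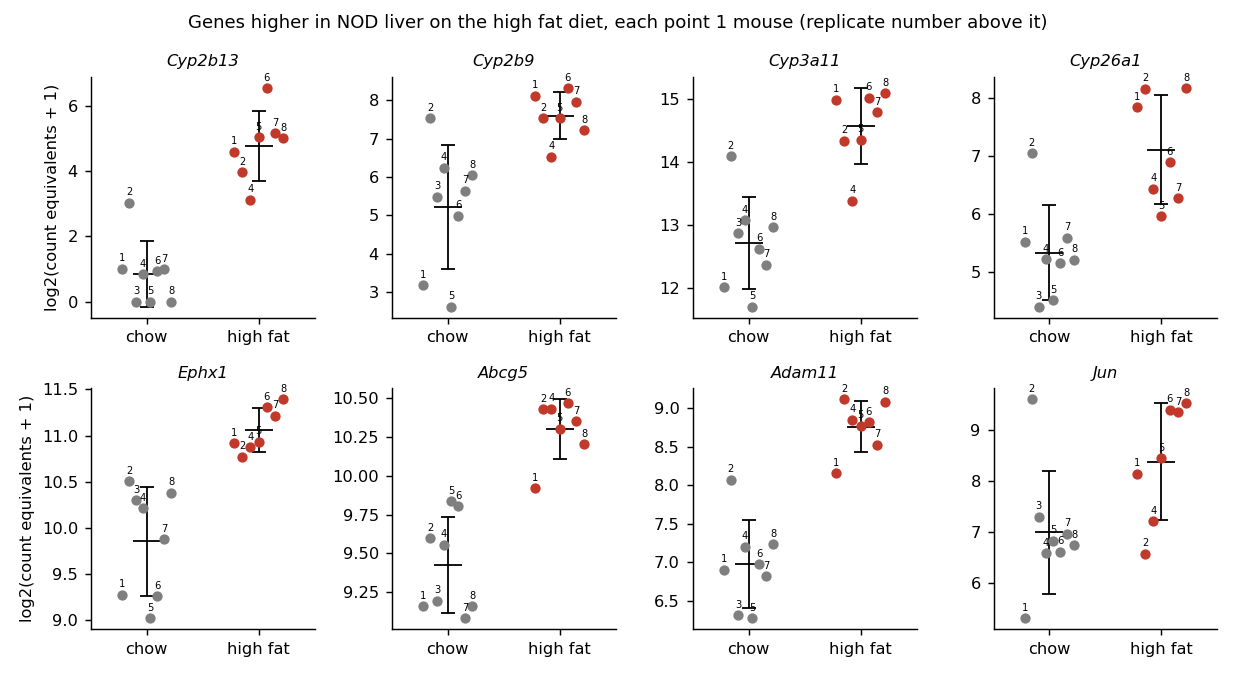
Levels of 8 genes that rose on high fat, as log2(count equivalents + 1), in 8 chow (grey) and 7 high fat (red) NOD livers, with replicate numbers, mean and SD. Chow replicate 2 is the highest chow liver for Cyp2b13, Cyp2b9, Cyp3a11, Cyp26a1, Ephx1, Adam11 and Jun.

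Of 30 genes for fatty acid oxidation and PPAR alpha targets 1 rose, Hadh, a dehydrogenase of beta-oxidation, at 885 to 1575 on chow and 1552 to 2008 on high fat (change 0.51 ± 0.14, adjusted p = 0.0268). Over all genes 0.99% rose. The list median was 0.30, against 0.01 over all genes, and 28 of 30 changes were positive, against 7090 of all 13637. An unadjusted p under 0.05 was met by 12 genes, a count without a baseline here. In this list 7 of 29 tested genes rose in the fit on NOD libraries alone, 6 of 30 with array weights and 0 without chow replicates 5, 6 and 7. Over all genes the same fits called 190 of 11565, 450 of 13637 and 17 of 13631 higher. Acaa1b, a peroxisomal thiolase, had a change of 1.12 ± 0.36 and missed the threshold (adjusted p = 0.0823). Of 22 genes of fatty acid and triglyceride synthesis 5 had an unadjusted p under 0.05. Of the 22, 1 fell, against 0.77% of all genes, the desaturase Fads1 (-0.67 ± 0.19, adjusted p = 0.0398). The synthase Fasn (-0.71), its regulator Srebf1 (0.80) and the phosphatidate phosphatase Lpin1 (-1.77) had changes of either sign that did not pass. Lpin1 was 318 in chow replicate 2 and 2212 to 9359 in the other chow livers, against 460 to 3144 on high fat. The lists for lipid droplets (17 genes), lipoproteins (18) and sugar metabolism (19) had 0 calls, with 4, 2 and 2 genes at an unadjusted p under 0.05 and medians of 0.29, 0.16 and 0.12. In the list for gluconeogenesis and insulin signalling 1 of 21 rose, against 0.99% of all genes, the growth hormone receptor Ghr (0.60 ± 0.13, adjusted p = 0.00454). A single call is too few to read as a result about a list. Without chow replicates 5, 6 and 7 Hadh, Fads1 and Ghr did not pass (adjusted p = 0.496, 0.0597 and 0.213). Leaving out single libraries ended the calls of Hadh in 7 and of Fads1 in 11 of 15 cases (adjusted p up to 0.0988 and 0.103).

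Stress and inflammation genes split the chow livers among themselves. In the list of the unfolded protein response, the chaperones of the endoplasmic reticulum, 0 of 17 genes passed. An unadjusted p under 0.05 was met by 8, a count without a baseline here. In this list 16 had a negative change, against 6477 of all 13637 genes, and the median was -0.45. Averaged over the list, chow replicates 5, 6 and 7 lay at 0.57, 0.90 and 0.55 on the log2 scale and the other chow livers between -0.24 and 0.22, with the high fat livers at -0.53 to 0.08. Hyou1, such a chaperone, was 5516, 7416 and 4781 count equivalents in those 3 and 2129 to 3397 in the other 5 chow livers, against 1634 to 2977 on high fat. The acute phase list, proteins that the liver secretes in inflammation, had 0 calls among 22 genes, 0 at an unadjusted p under 0.05, and a median of -0.29. Chow replicates 5, 6 and 7 lay there at 0.94, 0.82 and 0.66, high fat replicate 7 at 0.82 and every other liver at 0.08 or less. Serpina3n, a protease inhibitor of that list, was 62630 to 76805 in those 3 chow livers and 81474 in high fat replicate 7, against 13114 to 34536 in the rest. Without the 3 chow libraries the medians were -0.18 and -0.03. The part of these stress genes in the other results was not tested.

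**Figure D4:**
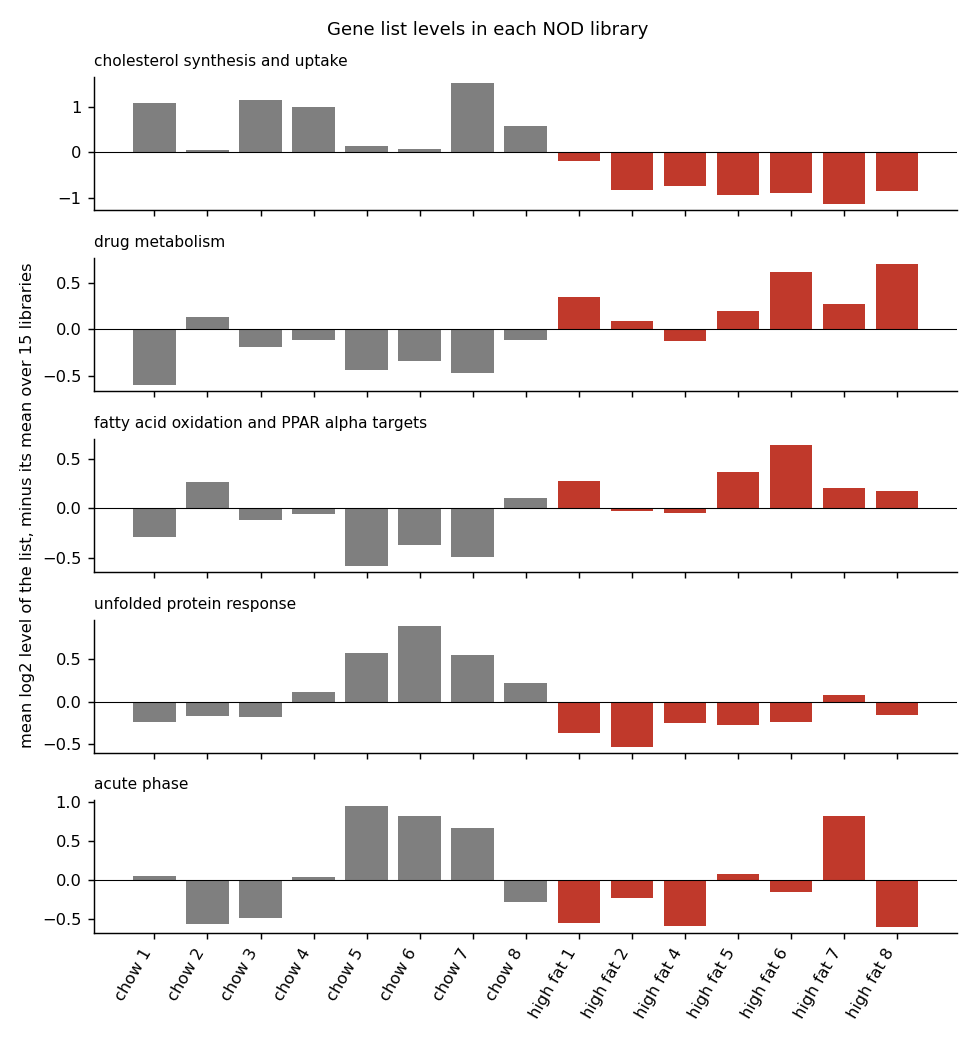
Mean log2 level of 5 gene lists in each NOD liver, relative to the mean of the 15 (chow grey, high fat red). The cholesterol list separates the diets, from 0.04 to 1.53 on chow and from -1.15 to -0.18 on high fat, while the unfolded protein and acute phase lists are highest in chow replicates 5, 6 and 7, with high fat replicate 7 also high for acute phase.

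Lists of the interferon response (22 genes), amino acid stress (15), urea cycle (24), clock (16) and cell division (8) had 0 calls by limma, with 2, 1, 3, 1 and 0 genes at an unadjusted p under 0.05. Markers of other cell types also had 0: 20 macrophage, 6 of 8 neutrophil, 16 stellate cell and 10 endothelial genes, with 1, 1, 2 and 0 at an unadjusted p under 0.05. Summed macrophage markers were 2296 to 3703 count equivalents on high fat and 2156 to 3455 on chow. For T, B and NK cells 15 of 21 markers were below the filter, and the summed markers were 665 to 1207 on high fat and 455 to 1522 on chow. Summed neutrophil markers were 130 to 258 on high fat and 69.5 to 189 on chow, and all 6 tested changes were positive (median 0.44). Among these 6, Ngp reached the filter's 10 count equivalents in 1 high fat and 0 chow NOD libraries. It did so in 6 libraries of the other strains. Ngp passed the filter only through the NOD high fat group, so its positive change, which is part of that median, is given no weight. The ranges of the 3 sums overlapped between the diets.

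The NOD changes were then set beside those of the other founder strains. The comparison used the libraries of 7 strains (129S1, AJ, B6, CAST, NZO, PWK and WSB), of which NZO males were killed at 20 weeks per the labels. The mean change of those strains called 1621 genes higher (11.9%) and 1194 lower (8.76%). Of the 240 NOD calls 181 were called there in the same direction and 0 in the opposite one, and 232 of 240 (96.7%) had the same sign, against 64.6% of all genes. For the cholesterol list all 23 genes were called lower in the other strains, with a median of -0.92. Sqle fell by 3.01 ± 0.23 on average there and in 6 of the 7 strains taken singly, and the 23 differences between NOD and the rest all missed the threshold (smallest adjusted p = 0.388). Sqle had the widest gap on the list, -1.77 ± 0.66 (adjusted p = 0.450). Adam11 rose in all 7 other strains, by 0.91 to 1.44. Cyp2b9 rose in B6 (4.66) and NZO (6.14) and in 0 of the other 5.

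In all, 7 genes (0.0513% of 13637) had a NOD change that differed from the mean change of the other strains, 5 higher (0.0367%) and 2 lower (0.0147%), and 1112 did at an unadjusted p under 0.05. Rab27a, a GTPase of vesicle secretion, was 18.3 to 43.1 on chow and 58.7 to 109.3 on high fat in NOD, with no overlap, and rose by 1.46 ± 0.23 (adjusted p = 7.34e-06). The other strains averaged 0.02, from -0.51 to 0.54 with 0 called, and the difference was 1.44 ± 0.24 (adjusted p = 0.000273). Their medians on either diet lay between 15.1 and 32.4, near the NOD chow level of 27.2.

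Celf2, an RNA-binding splicing regulator, was 24.4 to 50.3 on chow and 83.5 to 102.2 on high fat in NOD, and rose by 1.34 ± 0.15 (adjusted p = 7.32e-11). It rose in 3 of the other 7 strains as well, and their mean of 0.43 was lower than the NOD change by 0.90 ± 0.16 (adjusted p = 0.000383). NOD on chow had the lowest median of the 16 groups, 38.5 against 50.3 to 180 in the other 15, with NOD on high fat at 97.4. Bhlhe40, a transcription factor of the clock and of immune cells, was 465.96 to 1045 on chow and 672 to 1631 on high fat in NOD (change 0.73 ± 0.19, adjusted p = 0.019), fell in NZO (-0.69), and averaged -0.16 in the 7 (difference 0.88 ± 0.20, adjusted p = 0.0397).

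The genes of a pair of secreted immune proteins fell more in NOD. Ccl9, a chemokine, was 152.02 to 227 on chow and 31.5 to 83.9 on high fat, with every high fat liver below every chow liver, a change of -1.67 ± 0.22 (adjusted p = 6.31e-08). The other strains averaged -0.43, from -0.73 to -0.12, with a call in WSB alone. The difference was -1.24 ± 0.24 (adjusted p = 0.00321). Pglyrp2, a peptidoglycan amidase that the liver releases into blood, was 632 to 935 on chow and 394 to 574 on high fat, without overlap (change -0.74 ± 0.10, adjusted p = 6.31e-08), against -0.24 in the other strains (difference -0.51 ± 0.11, adjusted p = 0.0159). It was called lower in B6 (-0.39) and WSB (-0.41) as well. Without chow replicates 5, 6 and 7 the differences of Rab27a and Pglyrp2 passed (adjusted p = 0.00681 and 0.0389) and those of Celf2, Ccl9 and Bhlhe40 did not (0.0766, 0.0612 and 0.131). Leaving out single libraries ended the difference call of Pglyrp2 in 5 of 15 cases and of Bhlhe40 in 8 of 15 (adjusted p up to 0.112 without high fat replicate 5 and 0.145 without high fat replicate 7). The diet call of Bhlhe40 itself was lost in 3 of 15 (adjusted p up to 0.0680), without chow replicates 5, 6 and 7 (0.0938) and in the fit on NOD libraries alone (0.0592).

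The other 2 genes lay under the level bound for named genes and were chosen after their values were seen. Mrap2, an accessory protein of melanocortin receptors, was 1.81 to 9.75 on chow and 8.44 to 46.5 on high fat in NOD, with 1 high fat liver, replicate 5, inside the chow range (change 2.16 ± 0.25, adjusted p = 4.94e-10). In 129S1, AJ, B6, PWK and WSB its median was 0 on both diets, so their changes were held near 0 and no fold is given for them. Mrap2 was therefore set against a mean drawn mostly from strains without a usable level of it. In CAST and NZO, where it was detected in every library, medians were 166.9 and 203 on chow and 171.7 and 130.3 on high fat, above all NOD livers. Psg29, of the pregnancy-specific glycoprotein family, was 4.14 to 11 on chow and 5.61 to 27.2 on high fat in NOD and had a median of 0 in all 14 other groups. It reached the filter's 10 count equivalents in 6 high fat and 1 chow NOD libraries and in 0 of the other strains, so it entered the test through the group where it was high, and its calls are given no weight.

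**Figure D5:**
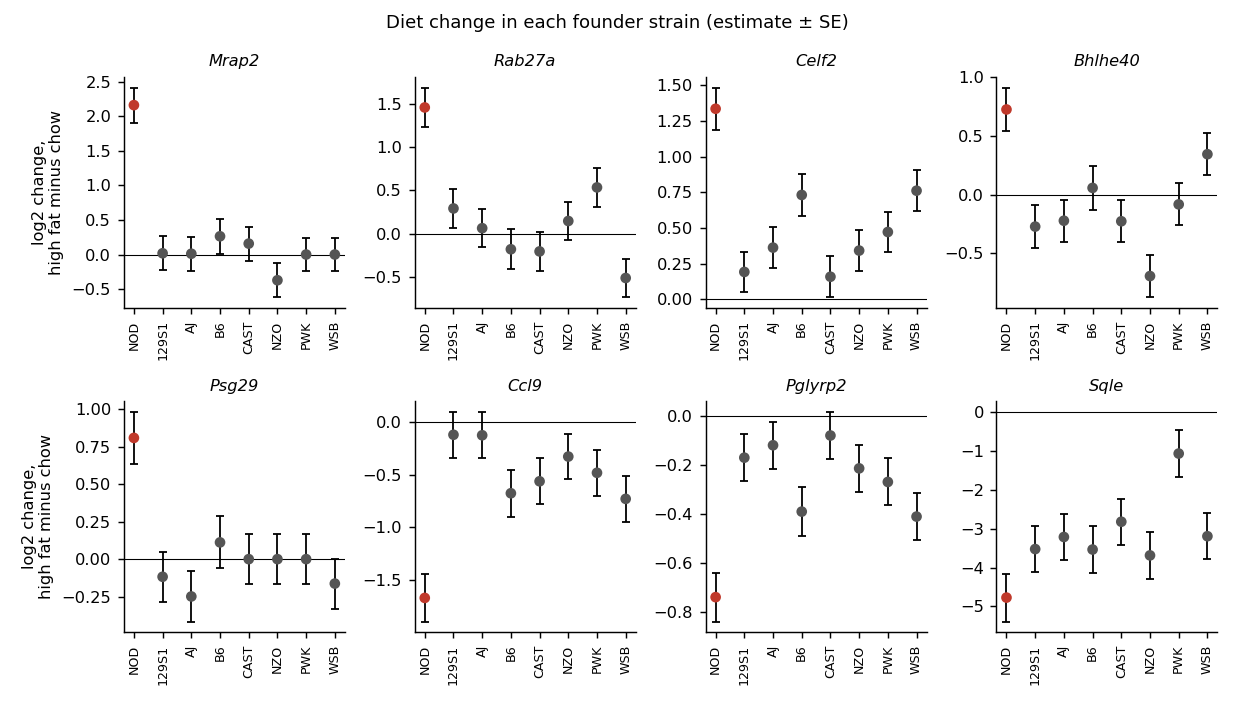
Diet change (log2, high fat minus chow, ± SE) in each founder strain for the 7 genes whose NOD change differed from the mean of the other strains, with Sqle for comparison. NOD is red. For Mrap2 NOD lies at 2.16. There 129S1, AJ, B6, PWK and WSB had a median of 0 on both diets, so their points near 0 are not a contrast. For Sqle all 8 strains lie below 0.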

How the data were processed

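Per the labels, libraries were made with a TruSeq mRNA kit and read from one end for 100 bases. Per the submitters' processing notes, CASAVA 1.8.0, Bowtie 0.12.8 and RSEM 1.2.1 were used with NCBIM37 (mm9), and the name of the deposited table says that founder reads were aligned to strain genomes. The deposited signal was normalized by the authors to an upper quartile of 1 per library. It is not counts: 82.1% to 84.1% of the low values of NOD libraries (up to 20.5 steps, tolerance 0.1) were whole, so no count model was used. Symbols were matched for 22760 of 24965 identifiers.

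limma 3.58.1 (R 4.3.3) was fitted with a variance trend to 126 libraries in 16 groups, without NOD high fat replicate 3 and B6 chow replicate 4, each of which resembled the strain of the other. Tested genes had 10 count equivalents in at least 7 libraries. The fit was tested on simulated data. The members, lists and tests were chosen with earlier results of these data known. Named genes are the 12 largest increases and decreases among calls with a mean log2 level of 5 or more, up to 8 with the smallest p for the difference between strains, and up to 4 with the smallest p in each list, without predicted genes; members of the cholesterol list are given beside them. Some members counted in that list are not reported here by name. Each library is 1 mouse, so p values measure the spread between mice. Alternatives changed the pseudocount, filter, scaling, weights, threshold and libraries.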

Additional observations from a re-analysis of the deposited data

Results flagged for a closer look

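In 256 groups of 7 or 8 libraries tested for a single distant value, 26 were flagged, and chance flags about 1 in 20. Several involve chow replicate 2, which was high for Cyp26a1 (131.2 count equivalents), Jun (776), Cyp2b13 (7.22) and Hao2 (5.39), an oxidase more abundant in females, and low for Lpin1 (318) and the membrane protein gene Cd9 (140). High fat replicate 1 was high for the sterol genes Cyp51 (214), Idi1 (257), Fdps (900.5) and Nsdhl (251), for Fads1 (3417) and for the immunoglobulin gene Ighm (761), and low for Saa4 (6781). High fat replicate 7, the other liver with high acute phase genes, was low for Cyp2u1 (41.9) and Gclm (1350) and high for the chaperone-associated Manf (1196). The other values were high for Serpine2 (352) and Cfd (1.24) in high fat replicate 8, for Isg15 (164.2), Cfd (2.41) and Hba-a2 (357) in chow replicate 4, for Ptprc (95.7) in chow replicate 1 and for Spp1 (1605) in chow replicate 7. They were low for Mki67 (1.87) in high fat replicate 5, Reln (547) in high fat replicate 4 and Cdc20 (0) in chow replicate 6. Hba-a2 has a near-identical copy, so its level is uncertain.

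The NOD diet change differed from the mean change of the other 7 strains for Rab27a (1.44), Celf2 (0.90), Bhlhe40 (0.88), Ccl9 (-1.24) and Pglyrp2 (-0.51), each by limma's test of the difference on the log2 scale.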

How the results depend on the processing

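Of 44 calls on named genes, 15 kept direction and call under every alternative that gave them a value (27, or 26 for the Rab27a difference and Cyp2b13, which the fit on NOD libraries alone does not give), 29 lost the call under at least 1, and 0 reversed. Diet calls, 240 in all, became 450 higher and 401 lower with array weights, 12 and 21 against a 1.2-fold null, and 17 and 32 without chow replicates 5, 6 and 7, an alternative chosen after seeing the data, as was keeping both libraries that went against their strain label. The fit on NOD libraries alone gave 190 and 140, of which 90 and 72 were among the 240. Leaving out 1 library gave 63 to 228 higher and 54 to 213 lower. With lane as a replicate block, 110 calls were lower and 17 of the cholesterol list, and of the named calls those of Cyp2b9, Jun and Abcg8 were lost and no other. The cholesterol list had 8 lower calls against the 1.2-fold null, 22 with array weights and 13 to 18 with 1 library left out. Calls of a difference from the other strains (5 higher, 2 lower) became 10 and 9 with a pseudocount of 10, 17 and 8 without a filter, 15 and 13 with array weights, 2 and 0 against the 1.2-fold null, 3 and 0 with high fat replicate 3 kept, 3 and 1 without chow replicates 5, 6 and 7, and 2 and 0 with both libraries kept. Lower differences numbered 1 with quantile scaling and 4 with the replicate block. With 1 library left out they were 3 to 10 higher and 1 to 6 lower. Genes without a call changed sign as follows. Sox9 (0.175) was -0.0441 with weights, -0.0173 with high fat replicate 3 or both libraries kept, and -0.0371 to 0.341 with 1 library left out. Spp1 (0.134) was -0.0320 with high fat replicate 3 or both kept and -0.0711 to 0.390 with 1 left out. Cfd (-0.0556) was 0.197 and -0.221 to 0.166. Cela1 (0.0322) was -0.0405 and -0.0665 to 0.114, and -0.214 without chow replicates 5, 6 and 7. Without those 3, Elovl3 was -0.0947, Hpx 0.0030 and Hba-a1 -0.168. The causes were not tested. What depth limits was not tested.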
